A study of Mus musculus with 6 samples.

Results

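The proteasome is the barrel-shaped protease that degrades ubiquitin-tagged proteins, and its genes were followed here in single-cell RNA counts from the mouse 4T1 mammary carcinoma model. Members were all gene symbols that begin with Psma, Psmb, Psmc, Psmd, Psme, Psmf or Psmg followed by a number, which gave 50 of the 28649 symbols in the count tables. Of these, Psmc3ip matches the pattern but encodes a meiotic recombination factor and not a proteasome subunit. Psmb11, the catalytic subunit of the thymus, stayed under the count filter, with a mean of 0.0685 CPM (UMI counts scaled to a total of 1000000) over all barcodes. The other 49 members entered the tests over all barcodes and between lineages.

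The core particle is built of alpha rings (Psma genes) and beta rings (Psmb genes), and its proteolytic sites are formed by Psmb5, Psmb6 and Psmb7. In cells exposed to interferon gamma, and constitutively in many cells of the immune system, newly built particles take up Psmb8 in place of Psmb5, Psmb9 in place of Psmb6 and Psmb10 in place of Psmb7, which gives the immunoproteasome and changes the peptides available to MHC class I. Psme1 and Psme2 encode the PA28 alpha and beta subunits of an activator cap that interferon gamma also induces. The Psmc genes encode the ATPase ring and most Psmd genes the non-ATPase base and lid of the regulatory cap, while Psmg genes encode assembly chaperones.

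The study set 3 libraries of 4T1 cells transduced with a control short hairpin RNA (shNC) beside 3 libraries labelled as carrying a hairpin against Pgk1 (shPgk1), which encodes a glycolytic kinase. Both groups went through lentiviral transduction and puromycin selection, per the labels' protocols. The labels describe biological replicates, but nothing says whether they came from separate cultures or animals, so the p-values speak only of the spread among these 6 samples, which may be technical. The labels name 4T1 cells alone, yet the libraries also held barcodes with macrophage, T cell, dendritic, fibroblast and endothelial transcripts. Pgk1 itself stood at 350, 340 and 313 CPM in controls, against 324, 324 and 349 CPM under the shPgk1 label, a log2 difference of 0.06 ± 0.07 (SE; edgeR, adjusted p = 0.55). In epithelial barcodes, the lineage of the 4T1 line, the Pgk1 difference was 0.27 ± 0.13 (adjusted p = 0.18), so the counts did not show a lower level of the targeted gene and the group is called by its label.

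Total UMI counts (unique molecular identifiers, each counting a captured RNA molecule) ran from 78778073 to 128933960 per library, and 42259 of 42902 barcodes were kept. A barcode was assigned to a lineage when its UMIs of that lineage's marking genes stood clearly above background and no other lineage was marked. Epcam with Krt8 marked 11768 epithelial barcodes, Csf1r with Cd68 marked 7131 macrophage barcodes and Cd3e marked 1354 T cell barcodes. Ccr7 with Ccl22 marked 228 mature dendritic barcodes, Col1a2 marked 1856 fibroblast barcodes and Cdh5 marked 284 endothelial barcodes. No proteasome gene was used in this step. Marker genes that were not used for marking were all detected in their own lineage, where their sum was between 1.48 and 2.55 times the library level for epithelial and between 31.0 and 67.7 times for endothelial barcodes. Several lineages also held genes of other cell types. Mature dendritic sums held macrophage check genes at 44.4% to 131% of the library level and mast cell genes at 58.9% to 483%. They held natural killer cell genes at 16.4% to 547% and B cell genes at 0% to 745%. Fibroblast sums held pericyte genes at 559% to 1431%. Endothelial sums held pericyte genes at 70.8% to 814% and mast cell genes at 143% to 668% of that level. Mature dendritic check genes stood above the library level in epithelial (110% to 158%), fibroblast (126% to 153%) and endothelial sums (212% to 259%). Plasmacytoid dendritic cell genes stood at 123% to 159% in epithelial and 104% to 188% in endothelial sums. T cell sums held natural killer cell genes at 345% to 1517% and the dendritic marking genes at 182% to 343%. The part of such cells in the lineage values was not tested. Marking genes of other lineages appeared in each lineage at a median of 18.0% to 23.6% of the library level, so every lineage value below includes some RNA of other cells.

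Promoters of an immune catalytic pair, of PA28 alpha and of a constitutive catalytic subunit are printed because the values that follow turn on these genes. Each runs from 250 bases before to 50 bases after the RefSeq start (GRCm38.p6) in the direction of transcription, and 42 of the 50 members matched an entry. Capitals mark each match, on either strand, to GAAA, any 2 bases and GAAA (ISRE-like), to TTCNNNGAA (GAS-like), to GGGA, any base and TTTCC (kB-like), to TGACNNNGC (antioxidant-response-like) or to CCAAT.
Psmb8 promoter: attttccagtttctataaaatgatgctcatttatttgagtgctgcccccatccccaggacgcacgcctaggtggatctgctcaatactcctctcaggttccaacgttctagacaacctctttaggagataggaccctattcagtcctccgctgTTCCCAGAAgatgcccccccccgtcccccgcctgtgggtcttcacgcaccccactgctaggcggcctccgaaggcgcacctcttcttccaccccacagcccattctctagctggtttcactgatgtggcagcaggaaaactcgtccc
Psmb9 promoter: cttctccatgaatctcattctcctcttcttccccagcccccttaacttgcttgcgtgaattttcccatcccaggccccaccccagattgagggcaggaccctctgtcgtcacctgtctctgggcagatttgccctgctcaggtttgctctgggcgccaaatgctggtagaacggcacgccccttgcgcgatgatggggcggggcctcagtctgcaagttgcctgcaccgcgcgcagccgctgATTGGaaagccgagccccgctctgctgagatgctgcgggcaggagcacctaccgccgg
Psme1 promoter: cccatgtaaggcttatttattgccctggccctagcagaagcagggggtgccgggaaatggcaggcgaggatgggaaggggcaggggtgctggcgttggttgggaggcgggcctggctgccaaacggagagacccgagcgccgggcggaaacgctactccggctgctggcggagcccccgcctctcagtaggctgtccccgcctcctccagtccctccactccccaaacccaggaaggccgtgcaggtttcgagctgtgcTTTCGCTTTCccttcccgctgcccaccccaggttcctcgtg
Psmb5 promoter: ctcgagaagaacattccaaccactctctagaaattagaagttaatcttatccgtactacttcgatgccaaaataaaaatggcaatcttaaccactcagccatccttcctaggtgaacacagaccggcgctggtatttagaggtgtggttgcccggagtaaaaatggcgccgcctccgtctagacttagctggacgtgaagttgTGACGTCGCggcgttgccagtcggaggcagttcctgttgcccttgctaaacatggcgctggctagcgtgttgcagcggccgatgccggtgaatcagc
Psmb8 (chr17:34197945-34198244, plus strand) and Psmb9 (chr17:34187281-34187580, minus strand) are near neighbours on chromosome 17. The Psmb8 window held the GAS-like letters at bases -97 to -89 from the start, a match that 8.30% of the 32851 promoters of the same length carried. In Psmb9 the marked letters are an inverted CCAAT at bases -8 to -4, a match found in 37.4% of promoters. Psme1 (chr14:55578244-55578543, plus strand) held the ISRE-like letters on the antisense strand at bases 9 to 18, as did 3.44% of promoters. Psmb5 (chr14:54617946-54618245, minus strand) held the antioxidant-response-like letters at bases -47 to -39, as did 12.4% of promoters. The kB-like letters were in 0 of the 45 member promoters and in 0.411% of all promoters. These matches describe letters in a window and not bound sites.

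Immune catalytic subunits made up more than 50% of the catalytic subunit UMIs in every library of epithelial, macrophage, T cell and mature dendritic barcodes. In fibroblast and endothelial barcodes, where the mean share was lowest, this held in 5 of 6 libraries each as counted, and in 2 of 6 fibroblast and 5 of 6 endothelial libraries after RNA of other lineages was subtracted. The immune share was taken as Psmb8, Psmb9 and Psmb10 UMIs over the UMIs of those genes plus Psmb5, Psmb6 and Psmb7. It compares lineages with each other and is not a ratio of proteins, since capture differs between genes. In epithelial barcodes the share was 71.4%, 69.4% and 69.7% in shNC libraries 1 to 3 and 72.0%, 63.6% and 67.5% under the shPgk1 label, libraries 1 to 3. In macrophage barcodes it was 66.3%, 63.6% and 64.2%, then 67.6%, 59.5% and 62.3%. The macrophage share lay below the epithelial share of the same library in 6 of 6 libraries, by 5.02 ± 0.65 percentage points (mean ± SD, n = 6).

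In fibroblast barcodes the immune share was 62.5%, 52.9% and 54.1% in controls, against 63.0%, 46.0% and 53.9% under the shPgk1 label. In endothelial barcodes it was 65.1%, 56.6% and 59.0%, then 63.4%, 47.2% and 57.2%. Both stromal lineages lay below epithelial barcodes in 6 of 6 libraries, fibroblasts by 13.6 ± 3.76 points and endothelial barcodes by 10.9 ± 3.47 points. For macrophage, fibroblast and endothelial barcodes the two-sided exact sign-flip permutation test over 6 pairs gave p = 0.031, the smallest it allows, and 0.052 after adjustment over 5 contrasts. The share thus missed the threshold of 0.05 in this test, although no library went the other way.

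Mature dendritic barcodes had an immune share of 75.7%, 72.4% and 72.1% in controls, against 73.1%, 62.7% and 69.5% under the shPgk1 label. That was above the epithelial share in 5 of 6 libraries, by 1.98 ± 1.74 points (exact permutation p = 0.062, adjusted 0.078). T cell barcodes held 66.5%, 67.8% and 67.7%, then 67.9%, 66.7% and 67.9%, a difference from epithelial barcodes of -1.52 ± 2.97 points (higher in 2 of 6, exact permutation p = 0.25). After the other-lineage RNA was subtracted, an alternative added after the data were seen, the mean share was 69.4% in epithelial, 63.3% in macrophage, 67.6% in T cell, 72.1% in mature dendritic, 49.5% in fibroblast and 55.6% in endothelial barcodes. When Psmb7 and Psmb10 were left out of the share, T cell barcodes turned to 4.03 points above epithelial barcodes (exact permutation adjusted p = 0.062). Mature dendritic barcodes were then 5.82 points above, and macrophage, fibroblast and endothelial barcodes at -4.05, -12.1 and -8.10 points, each past the threshold (exact permutation adjusted p = 0.039). With stricter marking, which took the whole library average as background, the mature dendritic difference turned to -1.42 points. In this lineage that was the larger set, with 303 barcodes against 228 in the main marking. A barcode that loses its mark for another lineage under the higher background is no longer left out.

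**Figure D1:**
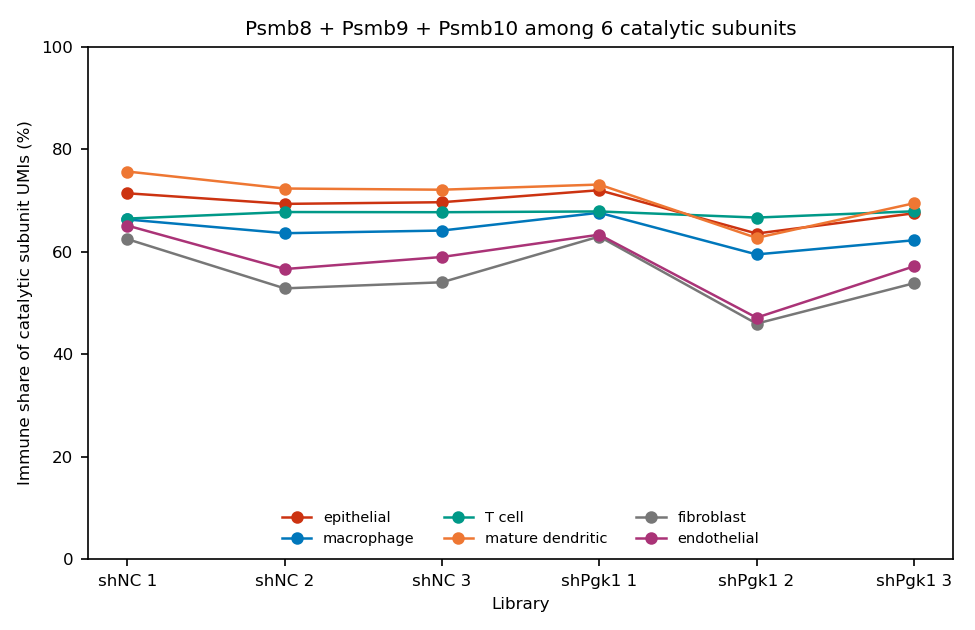
Immune share of catalytic subunit UMIs (percent, y axis) in each of the 6 libraries (x axis), with a line for each lineage; lines join libraries for reading across and imply no order. Fibroblast and endothelial barcodes lie lowest, the library labelled shPgk1 2 dips in 5 lineages, and T cell barcodes stay within 1.43 points.

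The immune share moved between libraries in the same way in most lineages. The library labelled shPgk1 2 had the lowest share in epithelial, macrophage, mature dendritic, fibroblast and endothelial barcodes, and shNC 1 and the library labelled shPgk1 1 had the highest pair of shares in each of these lineages. The lowest and highest library differed by 8.46 points in epithelial, 8.14 in macrophage, 13.0 in mature dendritic, 17.0 in fibroblast and 18.0 in endothelial barcodes. T cell barcodes spanned 1.43 points, and their lowest library was shNC 1. Libraries of the shPgk1 label thus stood in the highest pair and at the lowest place in these 5 lineages. The lineages of a library share its processing and its free RNA, and the part of either in this pattern was not tested.

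Psmb10, the immune counterpart of Psmb7, was lower in each of the other lineages than in epithelial barcodes. Its level in epithelial barcodes was 492, 396 and 405 CPM in controls, against 520, 375 and 457 CPM under the shPgk1 label. In macrophage barcodes it was 308, 265 and 240 CPM, then 300, 253 and 303 CPM. The lowest epithelial library lay above the highest macrophage library, and the remaining lineages had means from 156 ± 30.6 CPM (SD, n = 6) in fibroblasts to 244 ± 38.3 CPM in mature dendritic barcodes. Psmb10 was lower than in epithelial barcodes in 6 of 6 libraries in each of the 5 other lineages. The log2 difference was -0.49 ± 0.09 (SE) in macrophage, -0.86 ± 0.10 in mature dendritic, -1.38 ± 0.09 in endothelial, -1.43 ± 0.09 in fibroblast and -1.57 ± 0.09 in T cell barcodes (edgeR with library as a block, adjusted p from 3.0e-06 down to 2.1e-19).

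Psmb8 and Psmb9, which share a locus, followed another order. Psmb8 averaged 684 ± 118 CPM in mature dendritic, 603 ± 35.5 in T cell, 508 ± 84.6 in epithelial, 501 ± 70.2 in macrophage, 375 ± 77.1 in endothelial and 312 ± 73.5 CPM in fibroblast barcodes (SD, n = 6). Neighbours in that order overlapped in their range over libraries. Against epithelial barcodes Psmb8 was higher in mature dendritic barcodes by 0.43 ± 0.10 on the log2 scale (edgeR adjusted p = 0.00018) and lower in fibroblasts by a log2 difference of -0.65 ± 0.09 and in endothelial barcodes of -0.65 ± 0.10. Psmb8 did not pass in T cell (0.08 ± 0.09) or macrophage barcodes (0.15 ± 0.09). By CPM, which lack the scaling of the fits, T cell barcodes were above epithelial barcodes in 6 of 6 libraries. Macrophage barcodes were below epithelial barcodes in 4 of 6, so the order of these lineages differed between CPM and the fits.

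Psmb9 averaged 365 ± 58.3 CPM in mature dendritic, 361 ± 35.9 in T cell, 342 ± 64.4 in epithelial, 272 ± 39.1 in macrophage, 226 ± 43.9 in endothelial and 142 ± 38.8 CPM in fibroblast barcodes, again with overlapping neighbours. The fibroblast values of Psmb9 were 193, 124 and 134 CPM in controls, against 181, 88.2 and 132 CPM under the shPgk1 label. These were all below the lowest epithelial library, at 257 CPM. The log2 difference from epithelial barcodes was -1.21 ± 0.10 in fibroblasts and -0.80 ± 0.10 in endothelial barcodes (edgeR adjusted p = 7.6e-15 and 3.2e-09), and Psmb9 did not pass in T cell, macrophage or mature dendritic barcodes. By CPM, Psmb9 was nevertheless below epithelial barcodes in 6 of 6 macrophage libraries. It was above them in 5 of 6 mature dendritic and 3 of 6 T cell libraries. The macrophage log2 difference ran from -0.23 to -0.15 over the fits that left out 1 library.

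Of the constitutive catalytic subunits, Psmb5 passed in none of the 5 contrasts, with log2 differences from -0.16 to 0.03. Its means ran from 211 ± 16.8 CPM in fibroblasts to 260 ± 31.0 CPM in endothelial barcodes. By CPM, Psmb5 was above epithelial barcodes in 5 of 6 endothelial libraries and below them in 5 of 6 macrophage libraries. The endothelial log2 difference was negative and the macrophage one was 0.03, since the fits rescale library sizes (TMM) and CPM do not. Psmb6 was highest in macrophage barcodes, at 311, 298 and 277 CPM in controls, against 286, 290 and 312 CPM under the shPgk1 label. All 6 of these Psmb6 values exceeded the highest epithelial library, at 249.6 CPM, and the log2 difference was 0.51 ± 0.09 (edgeR adjusted p = 2.4e-06). Psmb7 was lower than in epithelial barcodes in all 5 lineages, with log2 differences from -0.24 to -0.47.

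**Figure D2:**
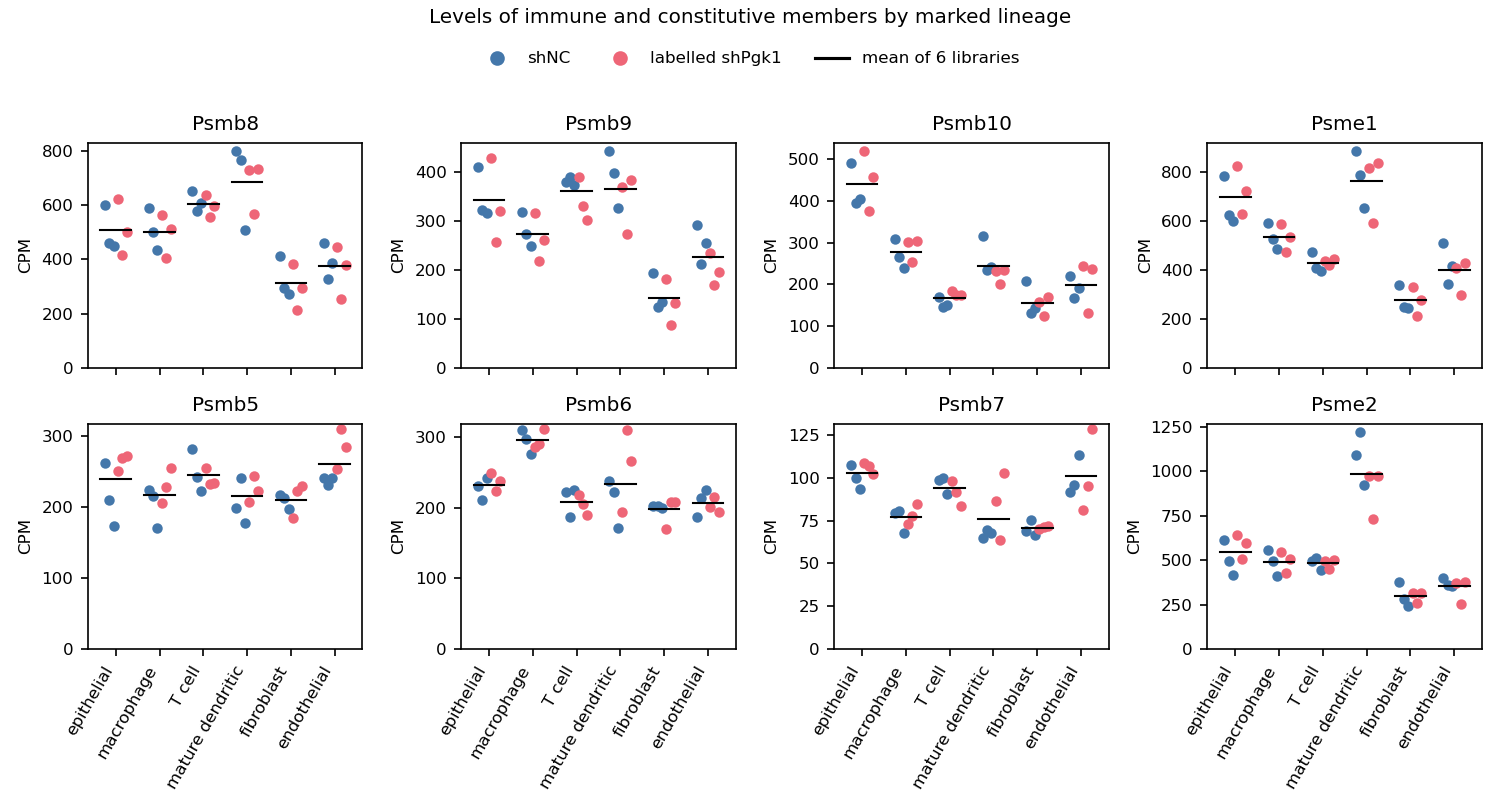
Levels (CPM, linear y axes from 0) of 8 members in each lineage (x axis), with a point for each library coloured by label and a bar at the mean of 6 libraries. Psmb10 is highest in epithelial barcodes, Psme2 in mature dendritic barcodes and Psmb6 in macrophage barcodes by mean, while Psmb5 has similar means in the 6 lineages.

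Of the PA28 genes, Psme2 was higher in mature dendritic than in epithelial barcodes. Psme2, the beta subunit, stood there at 1092, 1218 and 921 CPM in controls, against 974, 733 and 971 CPM under the shPgk1 label, and every library exceeded the highest epithelial library, at 642 CPM. The log2 difference from epithelial barcodes was 0.84 ± 0.10 (edgeR adjusted p = 5.0e-10). Psme1, the alpha subunit, averaged 761 ± 114 CPM in mature dendritic and 697 ± 92.9 CPM in epithelial barcodes, a log2 difference of 0.12 ± 0.09 that did not pass.

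Outside the dendritic lineage both PA28 genes were mostly below the epithelial level. Psme1 was lower in fibroblasts by a log2 difference of -1.28 ± 0.09, in endothelial barcodes of -1.02 ± 0.09, in T cell barcodes of -0.87 ± 0.09 and in macrophage barcodes of -0.21 ± 0.09 (edgeR adjusted p from 7.7e-17 to 0.024). Psme2 was lower in fibroblast, endothelial and T cell barcodes, with log2 differences of -0.80 ± 0.09, -0.84 ± 0.10 and -0.36 ± 0.09, and did not pass in macrophages. Psme1 and Psme2 lie close together on chromosome 14. Psme2b, a near copy of Psme2 on chromosome 11 whose reads cannot be told apart with certainty, took the same directions, with 0.79 in mature dendritic, -0.70 in fibroblast, -0.64 in endothelial and -0.37 in T cell barcodes.

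Set against the alpha ring, the log2 ratio of Psme1 plus Psme2 to Psma1 through Psma7 UMIs was 0.82, 0.88 and 0.55 in mature dendritic barcodes of shNC and 0.55, 0.09 and 0.30 under the shPgk1 label. In epithelial barcodes it was -0.09, -0.17 and -0.19, then -0.08, -0.37 and -0.28. The dendritic ratio was above the epithelial ratio in 6 of 6 libraries, by 0.73 ± 0.22 on the log2 scale (SD, n = 6). The ratio was lower than in epithelial barcodes in 6 of 6 libraries for T cell, fibroblast and endothelial barcodes, with differences of -0.28 ± 0.11, -0.55 ± 0.10 and -0.56 ± 0.16. Each of these 4 contrasts gave the smallest exact sign-flip permutation p of 0.031, adjusted 0.039. The macrophage difference was 0.03 ± 0.03 (exact permutation p = 0.125). Looser marking took barcodes with at least 1 marking UMI of the lineage and 0 of any other lineage. With it the T cell difference turned to 0.17 and the fibroblast difference shrank to -0.19. That marking kept fewer barcodes, with 284 T cell, 1028 fibroblast and 6094 epithelial, against 1354, 1856 and 11768. They were also shallower, with T cell library medians of 2859 to 3755 UMIs, against 7769 to 13724 in the main marking.

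Counted over all members tested in the 6 libraries, more were lower than higher against epithelial barcodes in every lineage. In the shNC libraries alone the macrophage balance was even, with 10 higher and 10 lower and a median log2 difference of 0.00039, where 65.0% of all genes were called. In macrophage barcodes 10 of 49 were higher and 21 lower, where 74.0% of all genes tested were called in either direction (36.6% higher and 37.4% lower). In T cell barcodes 7 were higher and 27 lower, with 68.3% of all genes called, 34.9% higher and 33.4% lower. Mature dendritic barcodes had 8 higher and 23 lower beside 55.7% of all genes called, 24.4% higher and 31.3% lower. Fibroblasts had 4 higher and 29 lower beside 70.9% (35.1% higher and 35.9% lower), and endothelial barcodes had 4 higher and 28 lower beside 58.2% (29.3% higher and 28.9% lower). The share of members called was near the background. The members' median log2 difference was -0.12 in macrophage, -0.29 in T cell, -0.19 in mature dendritic, -0.32 in fibroblast and -0.27 in endothelial barcodes. The medians of all genes tested were 0.01, 0.03, -0.16, -0.01 and -0.01 in the same order.

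The alpha ring genes followed the member-wide direction with exceptions. Psma3, Psma5, Psma6 and Psma7 were lower than in epithelial barcodes in all 5 lineages, with log2 differences for Psma6 from -0.25 ± 0.08 in macrophages to -0.85 ± 0.09 in fibroblasts. Psma1 went the other way in 3 lineages, with 0.29 in T cell, 0.40 in macrophage and 0.44 in mature dendritic barcodes, and was lower in fibroblasts at -0.59; with looser marking its T cell difference turned to -0.24. Among the non-catalytic beta ring genes 13 of 20 tests passed, all of them lower, where 28.9% to 37.4% of all genes were called lower and 55.7% to 74.0% in either direction. Psmb1 was lower in all 5 lineages with differences from -0.31 to -0.55. Psma8, the alpha subunit of male germ cells, was higher in macrophages by 1.91 on the log2 scale, at a mean of 1.93 CPM against 0.643 CPM in epithelial barcodes, and its mature dendritic values rest on 8 UMIs in all.

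Members of the regulatory cap split by gene. Psmc2, an ATPase subunit, was lower than in epithelial barcodes in 6 of 6 libraries in all 5 lineages, from -0.69 ± 0.08 in fibroblasts to -1.38 ± 0.11 in mature dendritic barcodes. Psmd7, a lid subunit, was lower in all 5 as well, from -0.41 ± 0.09 in fibroblasts to -1.26 ± 0.09 in T cell barcodes. Psmd8, another lid subunit, was higher in macrophage, mature dendritic, fibroblast and T cell barcodes, with 0.86 ± 0.08, 0.94 ± 0.09, 0.40 ± 0.08 and 0.28 ± 0.08, the last turning to -0.024 with looser marking. Psmd13, also of the lid, was higher in 4 lineages, most in T cell barcodes at 0.77 ± 0.08. Psmc4, an ATPase subunit, was higher in endothelial barcodes at 0.70 ± 0.10 and in fibroblasts at 0.22 ± 0.10.

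Chaperones and alternative activators also parted from each other. Psmg3, an assembly chaperone, was lower in all 5 lineages, from -0.64 ± 0.09 in macrophages to -1.51 ± 0.19 in mature dendritic barcodes. Of the 4 Psmg genes between 3 and 4 were called lower in each lineage, where 28.9% to 37.4% of all genes were called lower. Psme4, the PA200 activator, was higher in endothelial (0.83 ± 0.13), T cell (0.59 ± 0.11) and macrophage barcodes (0.48 ± 0.10). Psme3, the PA28 gamma activator of the nucleus, was higher in T cell and macrophage barcodes at 0.36 and 0.21 and lower in mature dendritic and endothelial barcodes at -0.44 and -0.29. By CPM, Psme3 was above epithelial barcodes in 6 of 6 T cell but only 3 of 6 macrophage libraries. It was below them in 6 of 6 mature dendritic and 4 of 6 endothelial libraries. Psmf1, the PI31 regulator, was higher in T cell barcodes at 0.37 (-0.052 with looser marking) and lower in fibroblasts at -0.21.

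**Figure D3:**
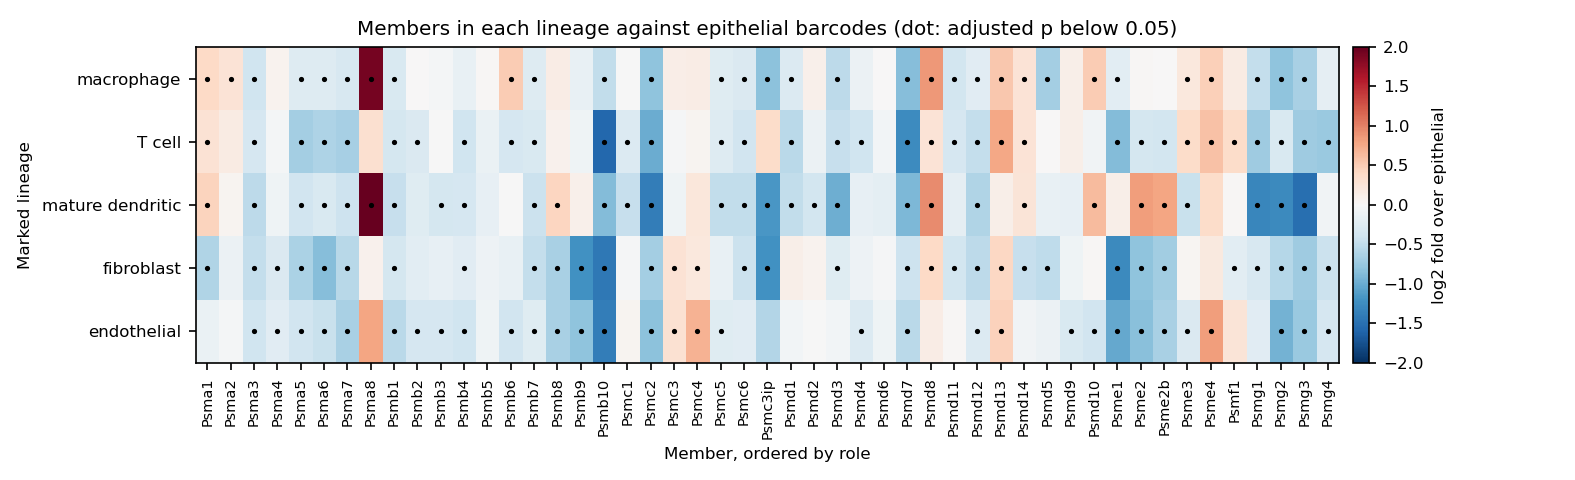
Log2 difference from epithelial barcodes (colour, clipped at 2 in either direction) for the 49 tested members (x axis, ordered by role) in 5 lineages (y axis), with a dot where the edgeR adjusted p was below 0.05. Psmb10, Psmc2, Psmd7 and Psmg3 are lower in every row, Psmd8 and Psmd13 higher in 4 rows each by the test, and Psme2 is higher in the mature dendritic row.

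Genes that work with the immunoproteasome were followed in a list of 14 class I antigen processing genes and their inducers. In mature dendritic barcodes 7 of 14 were higher and 1 lower than in epithelial barcodes, led by Irf8 (3.30), a transcription factor of dendritic cells and macrophages, and Ifngr2 (1.43), a chain of the interferon gamma receptor, on the log2 scale. In fibroblasts 3 were higher and 7 lower, with Nlrc5, the MHC class I transactivator, at -1.53, H2-D1 at -0.90 and H2-K1 at -0.63 among the lower. Macrophages had 7 higher and 2 lower, endothelial barcodes 5 higher and 2 lower, and T cell barcodes 5 higher and 6 lower. The share of the list called in either direction was near the background in these contrasts, which was 55.7% of all genes in mature dendritic, 70.9% in fibroblast, 74.0% in macrophage, 58.2% in endothelial and 68.3% in T cell barcodes. Ifng, which encodes interferon gamma, was at 135, 109 and 118 CPM in T cell barcodes of shNC and at 121, 74 and 136 CPM in those of libraries labelled shPgk1.

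A list of 21 proteasome cofactors and regulators gave a mixed picture between lineages. In T cell barcodes 4 were higher and 10 lower than in epithelial barcodes, with Nfe2l1, the factor that drives proteasome gene transcription when proteasome activity is low, at -1.74. Nfe2l1 was also lower in macrophage (-1.20), mature dendritic (-0.81) and fibroblast barcodes (-0.30). Pomp, the chaperone of core particle maturation, was lower in T cell and fibroblast barcodes at -0.49 in each. Counts of cofactors higher and lower were 6 and 7 in macrophage, 3 and 9 in mature dendritic, 7 and 10 in fibroblast and 8 and 4 in endothelial barcodes. These called shares, too, lay near the 55.7% to 74.0% of all genes called in the same contrasts.

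Across all kept barcodes, several ring, cap and assembly members were higher in the libraries labelled shPgk1. None of the 5 immune members passed, and neither did any of the 3 constitutive catalytic subunits (Psmb5, Psmb6 and Psmb7). Immune members were set against constitutive core members between labels through the immune share, given below, and the PA28 ratio. The PA28 ratio over all barcodes differed by -0.09 on the log2 scale (exact permutation p = 0.5, where 3 against 3 cannot go below 0.1). Immune members were not tested against the cap and assembly members. Of 49 members tested 17 rose and 1 fell, where 9.83% of all genes tested were called higher, 7.33% lower and 17.2% in either direction. The median log2 difference of the members was 0.26, against -0.05 for all genes tested. The 17 comprised 3 of 7 alpha ring genes, 3 of 4 non-catalytic beta genes, 3 of 6 ATPase genes, 4 of 11 base and lid genes, 3 of 4 assembly chaperones and Psmc3ip, which is no subunit.

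Psmg1, an assembly chaperone of the alpha ring, stood at 14.9, 14.7 and 15.4 CPM in controls, against 19.8, 20.8 and 21.3 CPM under the shPgk1 label. Psmc2 stood at 59.7, 56.2 and 54.1 CPM, then at 73.9, 76.0 and 79.4 CPM. Neither gene overlapped between groups, and Psmg1 rose by 0.53 ± 0.07 and Psmc2 by 0.51 ± 0.07 on the log2 scale (edgeR adjusted p = 0.016 each). Other rises were Psmc3ip (0.60), Psmd7 (0.49), Psmd6 (0.48), Psmg2 (0.46), Psma3 (0.43) and Psma6 (0.42). Psma8, at 1.15, 1.71 and 1.94 CPM in controls, against 0.788, 0.862 and 0.584 CPM in the other group, fell by 1.03 ± 0.25 (adjusted p = 0.036).

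None of the immune members passed between the labels over all barcodes. Psmb8 was at 558, 449 and 419 CPM in controls, against 569, 389 and 473 CPM under the shPgk1 label, and Psmb9 was at 335, 270.0 and 265 CPM, then 362, 234 and 283 CPM. The values of both genes overlapped between groups, with log2 differences of 0.08 ± 0.16 and 0.09 ± 0.17. Psmb10, Psme1 and Psme2 had differences of 0.33 ± 0.12, 0.27 ± 0.12 and 0.25 ± 0.14 (edgeR adjusted p = 0.091, 0.14 and 0.22). The immune share over all barcodes differed by -1.06 points between labels (exact permutation test, p = 0.7).

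The mix of cells moved with these labels. Epithelial-marked barcodes made up 19.8%, 19.6% and 23.3% of kept barcodes in shNC and 31.3%, 36.5% and 35.6% under the shPgk1 label. Fibroblast-marked barcodes made up 4.76%, 4.79% and 6.46%, then 2.58%, 4.33% and 3.48% (exact permutation p = 0.1 for each lineage, the smallest 3 against 3 allows). The summed level of 5 neutrophil genes was 1655, 1967 and 1322 CPM in controls, against 132, 614 and 467 CPM under the shPgk1 label. More cells of a type and more RNA per cell cannot be told apart in sums over all barcodes, and the part of the mix in the member differences was not tested. The calls, over members and over all genes, depended on single libraries, while the members' median stayed above 0. Without shNC 2, without the library labelled shPgk1 2 or without that labelled shPgk1 3, 0 members and 0 of all genes were called higher. The members' median log2 difference was then 0.24, 0.31 and 0.22, with 45, 45 and 44 of 49 differences above 0. Without shNC 3, 5 members rose beside 4.98% of all genes, and without the library labelled shPgk1 1, 27 rose beside 15.6%. Psma8 was not called without shNC 2, shNC 3 or the libraries labelled shPgk1 2 or 3, and its log2 difference ran from -1.23 to -0.85 over the fits that left out 1 library.

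Within lineages no member passed between the labels in any of the 6 edgeR tests. In epithelial barcodes 0 of 49 members were called, beside 1.96% of all genes, although 46 of the 49 differences were above 0 and their median was 0.26 against -0.02 for all genes. The smallest adjusted p there was 0.053 for Psmg1, 29 of the 49 members had an unadjusted p under 0.05, and DESeq2 called 15, all higher, beside 12.5% of all genes. Psmg1 was at 21.6, 18.7 and 19.6 CPM in epithelial barcodes of shNC and at 24.5, 24.3 and 24.6 CPM in those of libraries labelled shPgk1, a difference of 0.39 ± 0.09 with no overlap. Psmd6, a lid subunit, was at 47.4, 38.6 and 33.5 CPM, then 46.5, 54.2 and 59.7 CPM, with overlap and a difference of 0.53 ± 0.15 (edgeR adjusted p = 0.067). Without shNC 1, 27 members were called in epithelial barcodes beside 14.9% of all genes, and without the library labelled shPgk1 1, 2 were beside 11.0%.

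In macrophage barcodes 0 of 49 members were called beside 0.238% of all genes. Their median was 0.04 and 4 members had an unadjusted p under 0.05, while DESeq2 called 1 beside 2.71% of all genes. In T cell barcodes 0 of 48 were called beside 0.0728%, with a median of -0.04 and 2 members at an unadjusted p under 0.05. Leaving out the library labelled shPgk1 1 gave 1 called member in each of these 2 lineages, beside 1.27% of all genes in macrophage and 0.384% in T cell barcodes. Mature dendritic barcodes gave 0 of 44 (0.229% of all genes, median 0.09), fibroblasts 0 of 48 (0.00813%, median 0.01) and endothelial barcodes 0 of 47 (0.0475%, median -0.03). Each of these last 3 lineages had 2 members at an unadjusted p under 0.05, and DESeq2 called 0 members in T cell, mature dendritic, fibroblast and endothelial barcodes.

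No immune member passed between the labels within a lineage either. Psmb8 in epithelial barcodes was at 599, 461 and 450.0 CPM in controls, against 622, 414 and 499 CPM under the shPgk1 label, a log2 difference of 0.12 ± 0.16. The differences of Psmb9 ran from -0.39 in endothelial to 0.04 in epithelial barcodes and those of Psmb10 from -0.29 in mature dendritic to 0.17 in epithelial and T cell barcodes. Immune shares differed between labels by -2.45 points in epithelial, -1.58 in macrophage, 0.17 in T cell, -4.95 in mature dendritic, -2.19 in fibroblast and -4.37 points in endothelial barcodes. The shares overlapped between labels in each lineage, and the exact permutation p, adjusted over 7 comparisons, was 0.7 or above. The PA28 ratio of mature dendritic barcodes differed by -0.44 between labels without overlap (exact permutation p = 0.1, adjusted 0.70), on 27 to 49 barcodes per library.

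The test of whether the difference between labels itself differed between macrophage and epithelial barcodes called 0 of 49 members, beside 1.82% of all genes. The members' median for macrophage minus epithelial was -0.20, against 0.05 for all genes, and 12 members had an unadjusted p under 0.05. Without shNC 1, 7 members were called, all lower in that contrast, beside 4.07% of all genes. Of the 14 antigen processing genes 1 fell over all barcodes (Ifngr1, a chain of the interferon gamma receptor, by 0.37) and of the 21 cofactors 2 rose, Txnl1 (0.48) and Adrm1 (0.41), which encodes the ubiquitin receptor of the cap. Both counts were near the shares of all genes there, 7.33% lower and 9.83% higher. Neither list had a called gene within a lineage by edgeR.

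**Figure D4:**
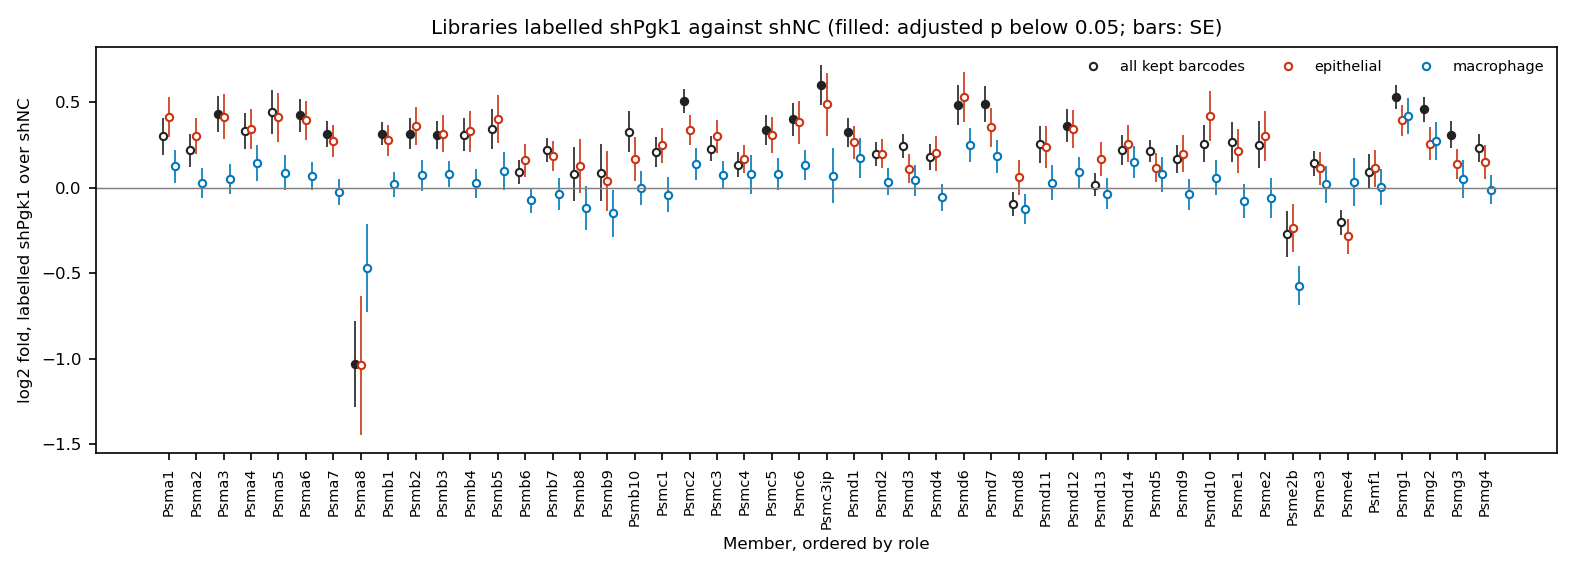
Log2 difference between libraries labelled shPgk1 and shNC (y axis, bars are SE) for the tested members (x axis, ordered by role) over all kept barcodes, in epithelial and in macrophage barcodes, with filled points where the edgeR adjusted p was below 0.05. Filled points occur over all barcodes, 17 above 0 and Psma8 below, and the epithelial points lie above 0 for 46 of 49 members.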

How the data were processed

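Droplet single-cell RNA was measured in 3 shNC libraries and 3 libraries labelled shPgk1, grouped by their titles. The deposited matrices hold raw UMI counts per gene and barcode, made with PISA 0.12 per the file headers. Seurat 4 and the build GRCh38 (hg38) are named per the submitters' processing notes, although the gene symbols are of mouse; neither the aligner and annotation nor the counting of reads shared by near copies (Psme2, Psme2b) is given here, so such copies are uncertain. Columns of other samples numbered 0.

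A barcode was left out below 500 UMIs, below 300 genes or above 20% mitochondrial counts (643 in all). A barcode was marked for a lineage when the summed UMIs of its marking genes had a Poisson upper tail under 0.001 against 0.33 of the library average, with at least 2 UMIs and every gene of a pair detected; this threshold was set after the counts were seen. No doublet caller was run: 489 barcodes marked for several lineages were left out, and 19149 were marked for none. Barcodes are numbered rather than given as sequences, so sharing between libraries could not be counted. Every pair of libraries differed beyond sampling noise (chi-square per degree of freedom from 24.4 to 278).

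Counts were summed per library and lineage, since cells are not replicates, and fitted by the robust quasi-likelihood method of edgeR 4.0.16 (R 4.3.3; TMM, filterByExpr), Benjamini-Hochberg adjusted over all genes tested, threshold 0.05. The SE is the log2 difference over the square root of F. Lineage contrasts and the macrophage by label term had library as a block. CPM are counts scaled to 1000000 UMIs of the same sum, without the TMM factors of the fits. Small differences can therefore differ in direction between CPM and the log2 differences. Immune shares and PA28 ratios used two-sided exact permutation tests. The scripts were tested on simulated counts. Alternatives were DESeq2 1.42.0, DESeq2 size factors in edgeR, no count filter, stricter and looser marking, other subunit sets, the shNC libraries alone and each library left out. Stricter marking took the whole library average as background, 1 in place of 0.33. Looser marking took barcodes with at least 1 marking UMI of the lineage and 0 of any other lineage. Both kept fewer epithelial barcodes (5399 and 6094, against 11768), while stricter marking kept more mature dendritic ones (303, against 228).

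Members and lists were chosen with earlier results of these data known. Named genes were the 5 immune and 3 constitutive catalytic members and up to 8 called members per direction and comparison, by size; further members named were chosen after their values were seen. The numbers of the titles were not used to pair libraries. Another gene of the antigen processing list is not reported here by name, though the list's counts include it.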

Additional observations from a re-analysis of the deposited data

Results flagged for a closer look

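Nlrc5, the transactivator of MHC class I genes and of Psmb9, differed between macrophage and epithelial barcodes in its difference between labels. The term for macrophage minus epithelial was 0.55 on the log2 scale (SE 0.12, edgeR adjusted p = 0.021), while 0 of the 49 members were called in the same test.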

How the results depend on the processing

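Counts of called members depended on the processing. Over all barcodes DESeq2 called 26 higher (13.8% of all genes), and with the replicate number as a block 6 rose (6.19%) and 0 fell; same-numbered libraries deviated from their group means with correlations of 0.11, 0.06 and -0.05, so the numbers were not taken as pairs, and no block fit within a lineage called a member. In epithelial barcodes DESeq2 called 15, no count filter 17 and looser marking 18, beside 12.5%, 7.36% and 10.6% of all genes. In macrophages DESeq2 called 1, beside 2.71%. Without the count filter T cell, fibroblast, macrophage and mature dendritic barcodes gave 1 each, beside 1.30%, 1.78%, 1.60% and 0.457% of all genes. Against epithelial barcodes, members higher without the filter were 2 in T cell, 2 in endothelial, 2 in fibroblast and 4 in mature dendritic barcodes. The shares of all genes called higher there were 16.3%, 13.6%, 19.5% and 10.7%. Looser marking gave 2 higher in T cell (22.2% of all genes) and 1 in fibroblast barcodes (25.0%). Stricter marking gave 6 higher in macrophage barcodes (32.2%). Members lower were 15 in T cell, 17 in endothelial and 10 in macrophage barcodes from the shNC libraries alone. Beside them 29.4%, 24.1% and 33.0% of all genes were called lower. In macrophages 12 were lower with looser and 32 with stricter marking, beside 31.9% and 40.5% of all genes. The cause of these shifts was not tested, except that fewer libraries enter the shNC fits.

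With Psmb8 and Psmb9 against Psmb5 and Psmb6 alone, the immune share minus that of epithelial barcodes was 4.03 points in T cell (reversed), 5.82 in mature dendritic, -4.05 in macrophage, -12.1 in fibroblast and -8.10 in endothelial barcodes, with an exact permutation adjusted p of 0.062 for T cell and 0.039 for the other 4 lineages, and the label difference in T cells was -0.55. Stricter marking reversed the mature dendritic share to -1.42 points, and looser marking the T cell label difference to -0.64. With all constitutive core subunits (Psma1 to Psma7 and Psmb1 to Psmb7) as denominator, the PA28 ratio of macrophages minus that of epithelial barcodes was -0.032. The T cell label difference was then 0.027. Against the alpha ring alone, the T cell label difference was 0.0053 with stricter marking. With looser marking the alpha ring ratio minus that of epithelial barcodes was 0.17 for T cell and -0.19 for fibroblast barcodes.

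Single genes that changed sign had small or uncalled differences in most cases. With looser marking T cell values were -0.24 for Psma1, -0.42 for Psmb8, -0.024 for Psmd8 and -0.052 for Psmf1, fibroblast Psmc3 was -0.11 and macrophage Psmb9 was 0.038. With stricter marking macrophage values were -0.18 for Psmb5, -0.054 for Psmb8 and -0.21 for Psme2, mature dendritic values 0.23 for Psmb6, -0.13 for Psmb9 and -0.15 for Psme1, and the epithelial label difference of Psmb9 was -0.066. Without the filter Psmb8 was -0.13 in T cells, Psmb5 -0.074 and Psme2 -0.083 in macrophages, and Psmb9 -0.13 and Psme1 -0.12 in mature dendritic barcodes. With DESeq2 size factors Psmb5 was -0.029 and Psme2 -0.036 in macrophages and Psmb6 0.072 in mature dendritic barcodes. In the shNC libraries alone Psmb5 was 0.036 in T cells and 0.077 in fibroblasts.

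Leaving out each library in turn gave 0 to 27 members higher over all barcodes, beside 0% to 15.6% of all genes. Members lower there were 0 to 1, beside 0.0149% to 9.94%. Called members were 0 to 27 in epithelial (0.0188% to 14.9% of all genes) and 0 to 1 in macrophage barcodes (0.0337% to 1.27%). They were 0 to 1 in T cell barcodes (0.00854% to 0.384%) and 0 to 7 for macrophage minus epithelial (0.306% to 4.75%). Label differences of the immune share ranged from -3.17 to 0.91 points over all barcodes, -3.83 to 0.24 in macrophage, -0.26 to 0.57 in T cell, -6.55 to 1.96 in fibroblast and -8.10 to 0.0014 in endothelial barcodes. Label differences of the PA28 ratio ranged from -0.056 to 0.014 in T cell and -0.19 to 0.042 in fibroblast barcodes; its lineage differences stayed at -0.32 to -0.26 (T cell), -0.60 to -0.51 (endothelial), -0.58 to -0.53 (fibroblast) and 0.66 to 0.78 (mature dendritic), and 5 pairs cannot pass the exact test. Label differences of Psmb8 ranged from -0.0077 to 0.21 over all and -0.034 to 0.28 in epithelial barcodes, and of Psmb9 from -0.035 to 0.23 and -0.17 to 0.20. In macrophages Psmb5 ranged from -0.047 to 0.064 and Psme2 from -0.051 to 0.059, and Psmb6 from -0.067 to 0.080 in mature dendritic barcodes. Looser marking left under 20 mature dendritic or endothelial barcodes in a library and was not run there. Depth limits the mature dendritic and endothelial sums most, at 27 to 49 and 31 to 65 barcodes per library.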

Other observations

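The ratio of Psme2b UMIs to Psme2 UMIs over all barcodes separated the labels, which was noticed after the values were seen. Psme2b is a near copy of Psme2 on chromosome 11 and was counted as a gene of its own. Over all barcodes Psme2b UMIs numbered 18.7%, 17.0% and 20.5% of the Psme2 UMIs in controls, against 13.1%, 12.7% and 13.1% under the shPgk1 label. The groups did not overlap in epithelial, macrophage, T cell, mature dendritic or fibroblast barcodes either, and overlapped in endothelial barcodes. In macrophages the means were 18.4% ± 1.58 for controls and 12.8% ± 0.33 under the shPgk1 label (SD, n = 3 each). The log2 difference of Psme2b itself was -0.57 in macrophage and -1.01 in mature dendritic barcodes (edgeR adjusted p = 0.068 and 0.067), beside -0.06 and -0.33 for Psme2. The sources used here do not say how reads shared by these copies were counted, and the part of that counting in the difference was not tested.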
